A study of Arabidopsis thaliana with 72 samples.

Results

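Roots of the Arabidopsis thaliana lines NG064 and NG087 were compared. Both are recombinant inbred lines of 1 cross, between the accessions Nok-3 and Ga-0. The comparison took every root array of the 2 lines, 12 of the 72 arrays of the series: 3 of NG064 and 3 of NG087 at low nitrate (0.4 mM), and 3 of NG064 and 3 of NG087 at sufficient nitrate (9 mM), with the nitrate supply as a covariate. The other arrays held the shoots of these lines and both organs of 2 accessions, El-0 and Fei-0, and of 2 further recombinant inbred lines, KB006 and SG063. All plants were 21 days old and had grown on vertical agar plates with 1% sucrose. According to the design text each replicate was a pool of 30 plants from 3 plates, although the growth protocol gives 6 seeds per dish. Each line is 1 inbred genotype, the parents were not among the lines studied, and the titles write the lines as NG064-0 and NG087-0. The sufficient medium held KNO3 and Ca(NO3)2, and the low-nitrate medium held less Ca(NO3)2 with KCl in place of KNO3, so the covariate stands for the whole medium.

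A recombinant inbred line is made by repeated selfing after a cross, so that at almost every locus it is fixed for the allele of one parent, and the alleles lie in blocks along each chromosome. Sister lines share the alleles at which they drew the same parent and differ at the rest. Roots take up nitrate, and nitrate is also a signal that changes the expression of many root genes, which is why the supply was kept as a term when the lines were compared.

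Levels were log2 GCRMA values of 22746 probe sets on ATH1 arrays, of which 13286 genes had a probe set of their own. The medians of the 12 arrays were 5.91 to 5.99, and 26.9% to 27.6% of the probe sets of an array were within 0.1 of the lowest value of the table, 2.11, called the floor below. Arrays of the same group correlated at r = 0.988 to 0.996, arrays of the other line at the same supply at 0.978 to 0.992, and arrays of the same line at the other supply at 0.965 to 0.981. The root label held: PYK10, the main beta-glucosidase of root ER bodies, was at 13.38 to 14.35 in the roots and 10.64 to 12.09 in the shoots of these lines, and EXPA7, an expansin of root hairs, was at 6.54 to 8.44 in roots and 2.69 to 3.49 in shoots. Leaf photosynthesis genes were lower in roots, with the chlorophyll-binding protein LHCB4.2 at 3.25 to 8.80 in roots and 13.03 to 13.95 in shoots. Bulk roots cannot tell fewer cells of a type from less RNA per cell.

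NG064 and NG087 roots differed at 2741 of the 22746 probe sets (12.1%), by limma with adjusted p below 0.05, here named called. Of these, 1078 were higher in NG064 (4.74%) and 1663 were lower (7.31%). Most differences were small: 1583 were under 0.5 on the log2 scale, 859 were 0.5 to 1, 244 were 1 to 2 and 55 were 2 or more, and the median absolute difference of the called probe sets was 0.45. Differences of 2-fold or more numbered 299 (1.31%), with 162 higher in NG064 (0.712%) and 137 lower (0.602%), and of these 32 were higher and 23 lower by 4-fold or more. The 6 NG064 arrays and the 6 NG087 arrays did not overlap at 1008 probe sets (4.43%). Among the genes, 1393 of 13286 were called (10.5%), 615 higher in NG064 (4.63%) and 778 lower (5.86%), and 157 were called at 2-fold or more (1.18%). The plot of difference against level shows called differences at all levels above the floor.

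**Figure D1:**
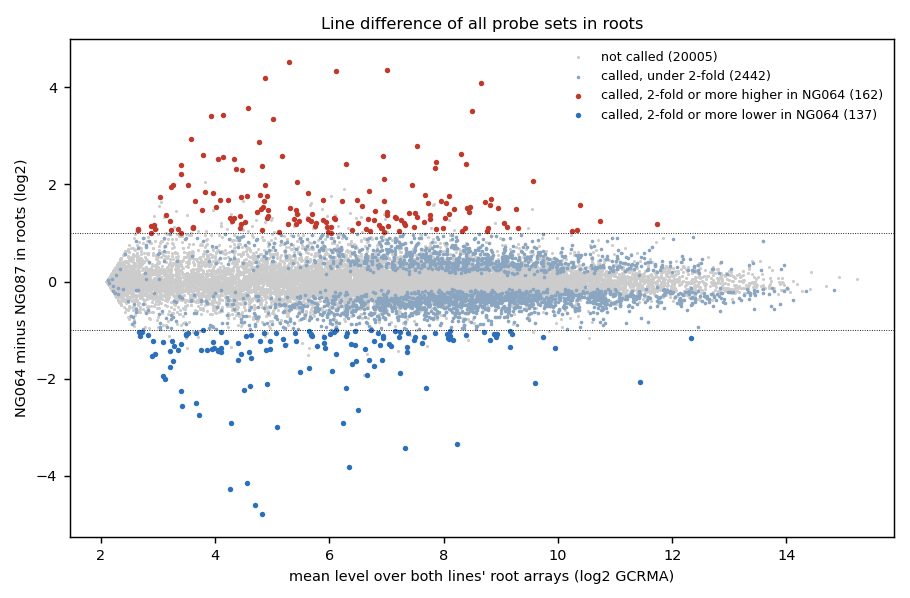
NG064 minus NG087 in roots (log2, y axis) of each of the 22746 probe sets against its mean level over the 12 root arrays (log2 GCRMA, x axis). Coloured points are called at adjusted p below 0.05 (red 162 and blue 137 at 2-fold or more, outside the dotted lines), and grey points are the 20005 that were not called.

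At 2-fold or more, the sister lines had fewer calls (299) than either had against any of the other 4 lines. In roots, 2-fold calls of NG064 against the other lines numbered 1245 against El-0 (5.47%), 842 against Fei-0 (3.7%), 1015 against KB006 (4.46%) and 1071 against SG063 (4.71%). For NG087 they numbered 1007 against El-0 (4.43%), 746 against Fei-0 (3.28%), 1037 against KB006 (4.56%) and 994 against SG063 (4.37%). These comparisons share the NG064 or the NG087 arrays with each other, and the size of the gap was not tested. Over calls of any size the order did not hold for NG087 against Fei-0, which had 1933 beside 2741 between the sister lines. NG064 against Fei-0 had 2787, and the comparisons with El-0, KB006 and SG063 had 3648 to 5492. The Fei-0 comparisons used 10 arrays, without the Fei-0 replicate 3 root arrays, because replicate 3 at sufficient nitrate correlated at 0.86 with each other array of its group.

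The 12 largest differences in each direction are given among called genes whose arrays did not overlap between the lines, so the absence of overlap was set by the choice. Called genes with overlapping arrays, such as AT2G16005 (2.79), AT2G35820 (2.57), AT3G02480 (2.29) and SK18 (-2.10), are not among them. AT1G11280 ranged from 7.92 to 8.52 (median 8.33) in the 6 NG064 arrays, against 3.84 to 4.26 (median 3.87) in the 6 NG087 arrays. The lines stood far apart at both supplies, with a difference of 4.34 (SE 0.11, adjusted p = 2.8e-07). The shoot difference was 5.28. AT3G56080 was at 7.13 to 8.08 (median 7.60) in NG064 and at 2.30 to 3.41 (median 3.07) in NG087, a difference of 4.52 (SE 0.22, adjusted p = 1.36e-05). AT5G54040 was at 8.89 to 9.49 (median 9.13) in NG064 and at 3.12 to 6.13 (median 5.06) in NG087, a difference of 4.34 (SE 0.51, adjusted p = 0.00106). The NG087 arrays of AT5G54040 spread more than those of AT1G11280 and AT3G56080. The gene table gives none of the 3 a symbol.

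Expression of PRX71, a class III peroxidase, a family of secreted enzymes that act on the cell wall and on hydrogen peroxide, was higher in NG064. Low minus sufficient was -3.57 in NG087 (adjusted p = 0.00309) and -1.15 in NG064 (adjusted p = 0.167). At low nitrate its levels were 10.36, 9.48 and 9.20 in NG064, against 5.90, 4.90 and 4.05 in NG087. At sufficient nitrate they were 10.80, 11.18 and 10.49 in NG064, against 9.19, 8.25 and 8.12 in NG087. The lines did not overlap at either supply, and the difference was 3.52 over both (SE 0.52, adjusted p = 0.0033), 4.73 at low nitrate (adjusted p = 0.005) and 2.31 at sufficient nitrate (adjusted p = 0.0308). The change of the difference with the supply was not called (2.42, SE 0.73, adjusted p = 0.488). El-0, Fei-0, KB006 and SG063 roots had means of 10.6, 9.71, 10.5 and 10.8, so NG064 (10.3) lay among the other lines and NG087 (6.73) below all of them.

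The remaining genes of the 12 with the largest positive differences among non-overlapping calls were AT2G02620 (3.58), AT5G51160 (3.43), AT2G33220 (2.62), psbA (2.59), AT1G18180 (2.58), AT2G07773 (2.43), AT1G19390 (2.4) and AT3G61390 (2.21). AT5G51160 was at 5.16 to 6.65 (median 5.83) in NG064 and 2.16 to 2.82 (median 2.42) in NG087, with an SE of 0.15 and an adjusted p of 7.97e-06. AT2G33220 was at 8.00 to 10.77 (median 9.55) in NG064 and 6.82 to 7.33 (median 6.94) in NG087, so its NG064 arrays spread more than its NG087 arrays. AT3G61390 was at 2.33 to 6.49 (median 4.75) in NG064 and 2.28 to 2.31 (median 2.31) in NG087. With the replicate number as a block its adjusted p was 0.0714, with blocks within each supply it was 0.133, and leaving out 1 array at a time it reached 0.0819 and passed the threshold in 5 of 12 fits. The probe set of AT2G07773 carries the suffix for probes shared by several sequences, so its signal may not be of this locus alone.

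Genes lower in NG064 included several at the floor in that line. AT2G02680 was at 2.11 to 2.15 (median 2.11) in the 6 NG064 arrays, against 5.83 to 6.96 (median 6.27) in the 6 NG087 arrays, a difference of -4.27 (SE 0.17, adjusted p = 5.11e-06). No NG064 array rose above the floor by more than 0.1, so the difference is bounded by the floor. AT5G34920, a pseudogene whose probe set may also match other sequences, was at 2.11 in 5 of the 6 NG064 arrays and at 4.00 in low nitrate replicate 2, against 6.89 to 7.43 (median 7.25) in NG087 (-4.78, SE 0.32, adjusted p = 7.31e-05). AT2G06490, also a pseudogene, was at 2.11 to 2.16 in 5 NG064 arrays and at 4.32 in low nitrate replicate 2, against 6.29 to 6.87 (median 6.68) in NG087 (-4.14, SE 0.37, adjusted p = 0.000333). The same NG064 array was thus the highest of its line for both pseudogenes. It was also the NG064 array nearest to NG087 for AT2G33220 (8.00), AT3G56080 (7.13), AT5G54040 (8.89) and SK18 (5.04). For AT2G02620 and AT5G51160 low nitrate replicate 1 was the nearest, and for ndhD replicate 2 was the furthest from NG087 (5.42). Across all calls, 11 were at the floor on all 6 NG064 arrays and 7 on all 6 NG087 arrays.

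Among the other large negative differences, AT2G01090 was at 3.67 to 7.56 (median 5.66) in NG064 and 8.59 to 9.38 (median 9.05) in NG087 (-3.43, SE 0.51, adjusted p = 0.0034). AT5G52810 was at 2.95 to 4.95 (median 3.13) in NG064 and 6.20 to 6.96 (median 6.62) in NG087 (-2.99, SE 0.38, adjusted p = 0.00155). The serine carboxypeptidase-like gene scpl26 was at 5.94 to 7.16 (median 6.71) in NG064 and 8.42 to 9.17 (median 8.79) in NG087 (-2.19, SE 0.24, adjusted p = 0.000871). None of these 3 overlapped between the lines, and scpl26 in NG087 was level with its means of 8.75 to 9.07 in the other lines. The pectin methylesterase gene PMEPCRF, whose protein acts on cell wall pectin, was at 4.02 to 6.90 (median 5.77) in NG064 and 7.47 to 7.82 (median 7.64) in NG087 (-1.93, SE 0.41, adjusted p = 0.0164). The other genes of this set were AT5G56380 (-2.57), AT1G05770 (-2.51), AT3G62630 (-2.20), AT5G54700 (-2.01) and AT5G26270 (-1.96). AT5G54700 and AT5G26270 were at the floor in all 6 NG064 arrays.

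**Figure D2:**
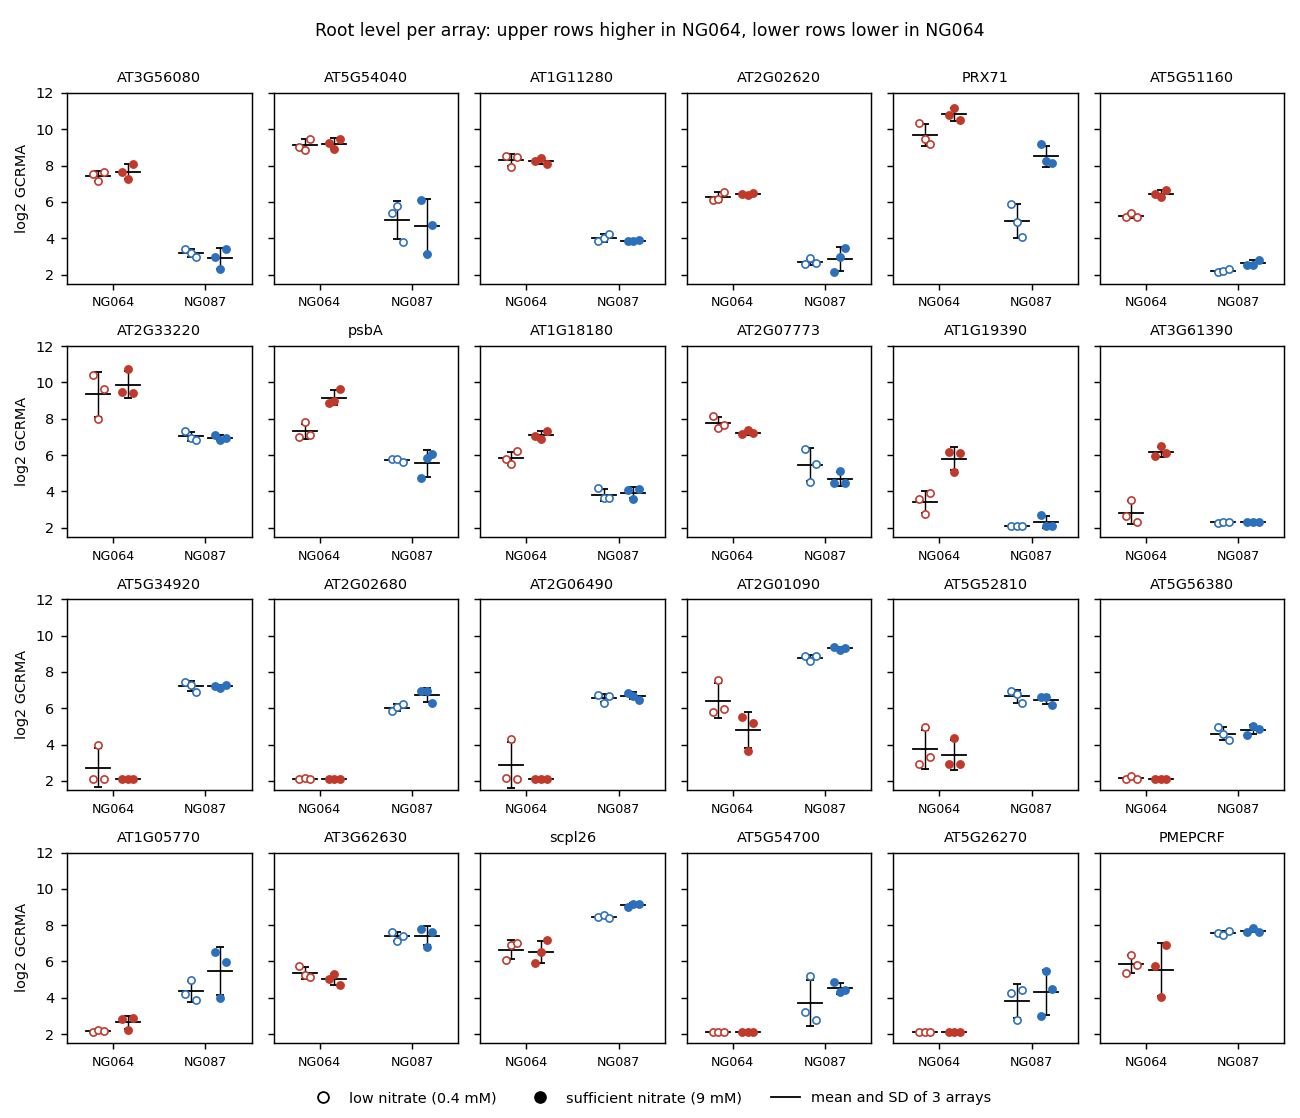
Root levels (log2 GCRMA, y axis) on each array of the 12 genes with the largest positive and the 12 with the largest negative NG064 minus NG087 difference among called genes whose arrays did not overlap between lines. Each point is 1 array, open at low and filled at sufficient nitrate, with the mean and SD of 3 arrays. AT1G11280 lies at 7.92 to 8.52 in NG064 and at 3.84 to 4.26 in NG087.

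Of the 157 genes called at 2-fold or more, most had no symbol in the gene table. The nuclear genes with a symbol not named so far are given here, which was chosen after the values were seen. Higher in NG064 were 2A6 (1.99), FHL (1.77), whose protein helps phytochrome A into the nucleus, ARPN (1.58), a plantacyanin, which is a small copper protein, the histone H2B gene HTB11 (1.30) and HEMA2 (1.14), a glutamyl-tRNA reductase of tetrapyrrole synthesis. FHL had 4.64 to 6.50 (median 5.28) in NG064 and 2.78 to 4.57 (median 3.60) in NG087. ARPN had 10.7 to 11.5 (median 11.3) in NG064 and 9.33 to 9.86 (median 9.62) in NG087. The lines did not overlap for either gene.

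Lower in NG064 were SK18 (-2.10), a SKP1-like gene of the ubiquitin system, WNK9 (-1.61), a kinase, AGL79 (-1.4), a MADS-box factor, and ALDH6B2 (-1.37), a methylmalonate semialdehyde dehydrogenase. The list went on with CHR24 (-1.31), a chromatin remodelling gene, IQD18 (-1.25), scpl35 (-1.14) and EXPB2 (-1.09). ALDH6B2 had 8.77 to 9.55 (median 9.29) in NG064 and 10.4 to 10.8 (median 10.7) in NG087, with no overlap (SE 0.13, adjusted p = 0.000384). SK18 had 2.76 to 5.04 (median 3.79) in NG064 and 4.97 to 6.72 (median 5.92) in NG087, and the highest NG064 array lay above the lowest NG087 array.

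Set against El-0, Fei-0, KB006 and SG063, the line that stood out differed from gene to gene. Of the 157 genes, NG064 alone lay outside the range of the 4 other lines' root means for 44, NG087 alone for 35, both for 45 and neither for 33. For scpl26 and SK18 it was NG064 that lay below all other lines, with the 4 means at 8.75 to 9.07 for scpl26 and 5.50 to 6.28 for SK18. PRX71, AT1G11280 and HTB11 were the opposite case: the other lines' means were 8.64 to 9.66 for HTB11, against 8.67 in NG064 and 7.37 in NG087. AT5G54040 was at 9.17 in NG064 and 9.11 in KB006 and at 2.13 to 2.19 in the other 3 lines, with NG087 between at 4.83. The range rests on 4 lines, and no test was attached to it.

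Line differences were next read within each supply. At low nitrate 607 probe sets were called (2.67%) and at sufficient nitrate 1892 (8.32%), with 3 arrays a group. Leaving out any one of the 6 low-nitrate arrays brought the low-nitrate count to 271 to 404. The sufficient-nitrate count was 1187 without NG064 replicate 1, 828 without NG064 replicate 3 and 1069 without NG087 replicate 3 of that supply. With replicate numbers as blocks within each supply, 226 were called at low nitrate and 1617 at sufficient nitrate. The response to nitrate itself, low minus sufficient, was called at 4757 probe sets in NG064 (20.9%) and at 3359 in NG087 (14.8%).

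The interaction, which asks whether the line difference changes with the supply, was called at 10 probe sets (0.044%), 8 of them genes of their own (0.0602%). At an unadjusted p below 0.05 it was found at 1638 (7.2%). It was called at 5 with the replicate number as a block and at 0 with blocks within each supply, where limma gave 2342 at an unadjusted p below 0.05 and a smallest adjusted p of 0.063. Leaving out 1 array at a time gave 12 to 44, the highest without NG064 sufficient replicate 2. The number of calls therefore depends on how the replicates enter the fit, and the values by array are given for each gene.

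AT5G59680 was near its lowest level in all groups but one. Its levels were 2.18, 2.18 and 2.18 at low and 2.23, 2.18 and 2.68 at sufficient nitrate in NG064. In NG087 they were 2.74, 2.78 and 2.33 at low and 6.62, 6.40 and 6.32 at sufficient nitrate. The NG087 arrays at sufficient nitrate stood apart from the 9 others. The interaction was 3.65 (SE 0.23, adjusted p = 0.00289, 0.0378 with the replicate number as a block and 0.113 with blocks within each supply). The difference over both supplies was -2.26 (adjusted p = 0.04, and 0.0813 with the block). AT5G54000 was at 2.11 to 2.13 in all 6 NG064 arrays. In NG087 it was 6.29, 5.96 and 5.13 at low and 2.11, 2.69 and 2.4 at sufficient nitrate (interaction -3.39, adjusted p = 0.0415, and 0.121 with the block). Its interaction lost the call in 8 of 12 fits that left out 1 array, up to an adjusted p of 0.101. Low-nitrate NG087 arrays were thus the high ones for this gene, and it was at 2.11 in the means of the 4 other lines.

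AT3G61390 responded in the other line. In NG064 it had 2.64, 3.54 and 2.33 at low and 5.95, 6.49 and 6.14 at sufficient nitrate, and NG087 stayed at 2.28 to 2.31 (interaction -3.35, SE 0.39, adjusted p = 0.0496). With the replicate number as a block all 5 called interactions were positive, so the negative one of AT3G61390 lost its call. Its interaction was not followed through the fits that left out 1 array. AT2G04050 was higher at low nitrate in both lines. It had 8.82, 8.63 and 8.78 at low and 3.79 in all 3 arrays at sufficient nitrate in NG064, and 7.22, 6.91 and 7.34 at low and 4.01, 3.80 and 3.79 at sufficient nitrate in NG087 (interaction 1.67, SE 0.15, adjusted p = 0.0244). The lines differed at low nitrate by 1.59 (adjusted p = 0.000651) and at sufficient nitrate by -0.08 (adjusted p = 0.861). The AT2G04050 interaction had an adjusted p of 0.0378 with the block and 0.113 with blocks within each supply. AT4G15700 had a called interaction of 1.60 (adjusted p = 0.0415, and 0.114 with the block, and lost in 7 of 12 fits that left out 1 array, up to 0.0756), set by NG087 at sufficient nitrate, where it had 4.12, 3.71 and 3.52 against 2.13 to 2.19 on the other 9 arrays.

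Other called interactions were smaller. AT2G26390 had 3.40, 3.22 and 3.16 in NG064 at low nitrate and 2.51 to 2.58 in the other 9 arrays (0.76, adjusted p = 0.0244). For AT3G55710 the interaction of 0.15 (adjusted p = 0.0146) rested on levels of 2.14 to 2.29, near the floor. With the block both genes had an adjusted p of 0.0378. With blocks within each supply it was 0.12 for AT2G26390 and 0.134 for AT3G55710. AT2G25870, named because it completes the 8 genes, had 0.57 (adjusted p = 0.0496) at one probe set and -0.19 (adjusted p = 0.99) at its other.

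**Figure D3:**
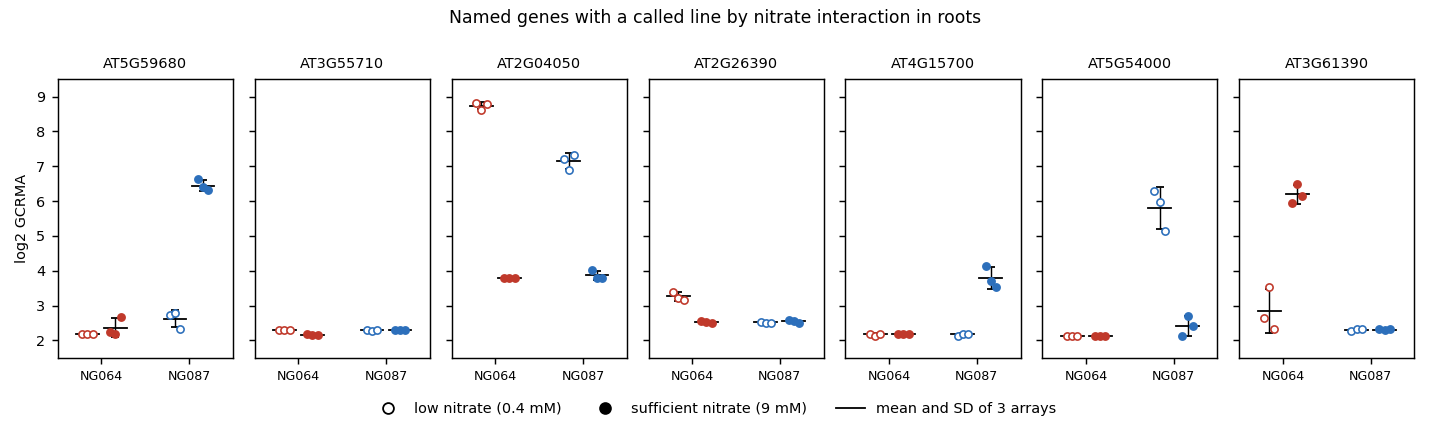
Root levels (log2 GCRMA, y axis) on each array of the 7 named genes with a called line by nitrate interaction, ordered by adjusted p. Open points are low and filled points sufficient nitrate, with the mean and SD of 3 arrays. AT5G59680 is at 6.32 to 6.62 in NG087 at sufficient nitrate and at 2.18 to 2.78 elsewhere.

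Few genes of the nitrate pathway had a probe set matched to 1 gene, and none of those was called between the lines. Of 17 nitrate transport genes 2 had such a probe set, here named measured, and of 18 nitrate regulators 4, and none was called. NRT2.5, a high-affinity nitrate transporter, had 2.57, 4.47 and 3.04 at low nitrate in NG064 and 2.24, 2.61 and 2.57 in NG087, with a difference of 0.46 over both supplies (SE 0.30, adjusted p = 0.419). NPF6.2, a member of the nitrate and peptide transporter family, had 3.77, 3.38 and 3.11 at low and 7.15, 6.22 and 7.62 at sufficient nitrate in NG064. In NG087 it had 4.72, 5.24 and 3.76 at low and 7.34, 7.07 and 7.19 at sufficient nitrate. All low-nitrate arrays were below all sufficient-nitrate arrays in both lines, with low minus sufficient at -3.58 in NG064 and -2.63 in NG087. The line difference was -0.68 (SE 0.33, adjusted p = 0.237). The loci AT1G68670 and AT1G25550 of the regulator list differed by -0.09 (adjusted p = 0.638) and 0.28 (adjusted p = 0.488). The lists for ammonium transport and assimilation, phosphate starvation and aquaporins had no member with a probe set matched to 1 gene. As 8730 probe sets were paired with no gene, unmatched genes were left unread, whether or not the array held probes for them.

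Genes of ER bodies, the root compartments that store beta-glucosidases, and of the PYK10 complex were read as 1 list and called in 1 direction. Of 7 measured, 3 were called higher and none lower. The called share was 42.9%, beside 10.5% of all genes and 18.0% of nuclear genes at a mean of 5 or more. All 7 lay above 0, and the list median was 0.23, against 0 over all genes. NAI1, the transcription factor needed to form ER bodies, had 8.06, 8.12 and 7.85 at low and 9.42, 9.30 and 9.34 at sufficient nitrate in NG064, against 7.33, 7.45 and 7.37 at low and 7.71, 8.63 and 8.05 at sufficient nitrate in NG087. The lines did not overlap within either supply, and the difference was 0.93 (SE 0.16, adjusted p = 0.00718). JAL33 and JAL22, jacalin-related lectins, differed by 0.64 (adjusted p = 0.0161, and 0.0514 with blocks within each supply) and 0.59 (adjusted p = 0.0444, and 0.0531 with the block). With blocks within each supply 1 of the 7 was called, and in a fit of all 36 root arrays 0 were. PYK10 itself differed by 0.23 (adjusted p = 0.194). Of 5 aliphatic glucosinolate genes 2 were called higher, AT2G25450 by 0.48 and AOP1 by 0.39, and the list median was -0.03.

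Of 19 measured nitrogen recycling and senescence genes, 3 were called higher in NG064 and none lower. The called share was 15.8%, beside 10.5% of all genes and 18.0% of nuclear genes at a mean of 5 or more. Of the 19, 17 lay above 0 and none at 0, with a median of 0.33. Of all 13286 genes 5226 lay above 0 and 2730 at 0, with a median of 0. ATG8G, one of the ubiquitin-like proteins that coat autophagosomes, had 8.95, 8.98 and 9.15 at low and 8.39, 8.56 and 8.41 at sufficient nitrate in NG064, against 8.51, 8.51 and 8.79 at low and 7.38, 7.61 and 7.58 at sufficient nitrate in NG087. Its arrays did not overlap within a supply (0.67, SE 0.11, adjusted p = 0.00418). ATG8F differed by 0.40 (adjusted p = 0.0356, and 0.0587 with the block) and DELTA-OAT, the ornithine aminotransferase of arginine breakdown, by 0.34 (adjusted p = 0.0134). ATG8H (0.42), ATG8B (0.33) and APG8A (0.25) had adjusted p-values of 0.247, 0.179 and 0.268.

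Detoxification and sugar-conjugating enzymes had called members in both directions. Of 14 glutathione transferases 3 were called higher, GSTU25 (0.83, adjusted p = 0.034), GSTU21 (0.55, adjusted p = 0.031) and GSTL3 (0.35, adjusted p = 0.0232), and none lower. The called share was 21.4%, beside 10.5% of all genes and 18.0% of nuclear genes at a mean of 5 or more. The family median was 0.07, 8 of the 14 lay above 0, and the lowest difference, -1.35, was not called. GSTU25 had 12.12, 11.86 and 11.73 at low and 9.81, 10.83 and 9.71 at sufficient nitrate in NG064, against 10.91, 11.12 and 11.20 at low and 8.88, 9.74 and 9.23 at sufficient nitrate in NG087. The lines did not overlap at low nitrate and overlapped at sufficient nitrate. GSTU25 is also the 1 called gene of 9 mitochondrial stress genes, whose median was 0.49. The called share of that list, 11.1%, was near the 10.5% of all genes. Of 52 UGT glycosyltransferases 1 was called higher and 4 lower. UGT74D1, which glucosylates auxins, had 8.50 to 9.19 (median 8.82) in NG064 and 9.19 to 10.1 (median 9.82) in NG087 (-0.89, SE 0.17, adjusted p = 0.0102), and UGT88A1 differed by -0.94 (SE 0.13, adjusted p = 0.00269). The others were UGT71C3 (-0.65, adjusted p = 0.0493, and 0.0531 with the block), UGT85A2 (-0.51, adjusted p = 0.0384) and, higher, UGT76C1 (0.38, adjusted p = 0.0489), a cytokinin glucosyltransferase. The called share of the UGT genes, 9.62%, was near the 10.5% of all genes.

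Of 29 expansins and xyloglucan enzymes, which loosen and remodel cell walls, XTH18 was called higher (0.72, adjusted p = 0.029) and EXPB2 (-1.09, adjusted p = 0.0216) and EXPA9 (-0.30, adjusted p = 0.0276) lower. With the block XTH18 and EXPA9 had adjusted p-values of 0.0606 and 0.0611. The called share of this family was 10.3%, beside 10.5% of all genes. EXPB2 had 5.49, 5.4 and 5.69 at low and 9.16, 9.31 and 10.08 at sufficient nitrate in NG064, against 6.63, 6.40 and 6.46 at low and 9.85, 11.19 and 11.13 at sufficient nitrate in NG087. The lines did not overlap at low nitrate and overlapped at sufficient nitrate. Its supply response, -3.99 in NG064 and -4.23 in NG087, was larger than its line difference. Of 24 cytochromes P450, CYP71B28 (0.80) and CYP71B26 (0.66, adjusted p = 0.075 with blocks within each supply) were called higher, a share of 8.33%. Of 17 defensins and thionins LCR68, a defensin, was called lower (-0.34, SE 0.03, adjusted p = 0.000526), a share of 5.88%, and of 2 F-box genes AFR was (-0.17, adjusted p = 0.044, and 0.0866 with blocks within each supply). AT1G14130 was called higher among 7 genes of auxin and lateral roots (0.50, adjusted p = 0.0338, and 0.0577 with blocks within each supply). None of 16 SWEET sugar transporters, 9 iron genes, 3 root terpene genes or 2 root hair genes was called.

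Plastid-encoded transcripts were called in both directions. Of 69 genes, 10 were called higher and 10 lower in NG064, with a median of 0.05. The called share was 29%, beside 10.5% of all genes and 18.0% of nuclear genes at a mean of 5 or more. Of the photosystem II genes, psbA, which encodes the D1 reaction centre protein, had 7.01, 7.80 and 7.13 at low and 8.88, 8.97 and 9.64 at sufficient nitrate in NG064. In NG087 psbA had 5.80, 5.78 and 5.64 at low and 4.72, 5.86 and 6.09 at sufficient nitrate. The lines did not overlap, and the difference was 2.59 (SE 0.42, adjusted p = 0.00465), with psbM (0.83) and psbI (0.65) also higher and psbD (-0.64) and psbC (-0.67) lower. Of photosystem I, psaA was lower (-1.45, adjusted p = 0.0382, and 0.054 with the block), and so was ycf4, which helps assemble that photosystem (-1.07, adjusted p = 0.0286). For psaA 8 of the 12 arrays held nearly the same low value, between 3.52 and 3.93.

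Subunits of the plastid NDH complex split as well. The gene ndhD had 3.94, 5.42 and 5.07 at low and 3.62, 5.33 and 5.07 at sufficient nitrate in NG064, against 2.99, 3.19 and 3.14 at low and 2.47, 2.47 and 3.12 at sufficient nitrate in NG087. It did not overlap between lines (1.85, SE 0.34, adjusted p = 0.00839). Also called were ndhE (1.18) and ndhH (-0.65), the ribosomal protein genes rpl32 (0.55), rps18 (0.70), rps14 (0.14), rpl16 (-0.74) and rpl36 (-0.60), and ccsA (0.56), petA (0.42), cemA (-0.37), atpB (-0.34) and accD (-0.95, adjusted p = 0.0612 with blocks within each supply). In KB006 roots psbA, ndhD and ndhE had means of 8.86, 5.24 and 6.59, above the NG064 means of 8.24, 4.74 and 6.01. Leaving out 1 array at a time gave 5 to 13 higher and 3 to 10 lower, with 5 and 3 without NG087 sufficient replicate 3, 6 and 3 without NG064 sufficient replicate 3, and 5 and 4 without NG064 low replicate 3. In a fit of all 36 root arrays 2 were higher and 1 was lower, and without the Fei-0 replicate 3 arrays 5 were higher and 8 lower.

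Nuclear leaf photosynthesis genes, markers of green tissue, had no call. Of 11 measured 3 lay above 0, with a median of -0.12. At low nitrate their mean level per array was 4.55, 5.27 and 5.03 in NG064, against 5.07, 5.24 and 4.62 in NG087. At sufficient nitrate it was 7.79, 7.96 and 8.20 in NG064, against 8.22, 8.24 and 8.37 in NG087. The lines overlapped at low nitrate, and at sufficient nitrate every NG064 array was below every NG087 array. The mean level of the plastid-encoded genes was 6.89 to 7.59 in NG064 and 6.96 to 7.56 in NG087. The part of green tissue in the plastid differences was not tested.

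The number of called genes was next read along the chromosomes. The 13217 nuclear genes were put in gene order and cut into 262 windows of 50 measured genes, with names and order from the RefSeq gene table of assembly TAIR10.1. A median of 10% of a window was called, with 0 in 11 windows and 28% at most. Genes next to a called gene were called at 13.1%, against 10.4% of all nuclear genes, and genes next to a 2-fold gene were 2-fold at 2.63%, against 1.15%. In 24 windows 20% or more were called. They held 274 of the 1373 nuclear called genes and, as part of these, 52 of the 152 called at 2-fold or more, shares that follow from how the windows were picked. Called counts also moved with the level of the genes: over windows they correlated with the share of genes at a mean of 5 or more (Spearman 0.474, n = 262 windows), and 18.0% of nuclear genes at such a mean were called.

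The number of windows with 20% or more rested on the threshold and on the arrays used. With the replicate number as a block it was 12, and leaving out 1 array gave 8 to 19, the lowest without NG064 sufficient replicate 3. On chromosome 1 the windows 1 to 24 held 39 genes called at 2-fold or more of 1200 (3.25%), and the windows 25 to 68 held 8 of 2200 (0.364%). On chromosome 3 the windows 44 to 54 held 14 of 550 (2.55%), and the windows 1 to 43 held 6 of 2150 (0.279%). These limits were read off the root values, so the root shares only describe them. Shoot arrays were not used to set them, although they come from the same lines: called in shoots were 60 (5%) and 12 (0.545%) genes of the chromosome 1 stretches, and 20 (3.64%) and 15 (0.698%) of the chromosome 3 stretches.

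**Figure D4:**
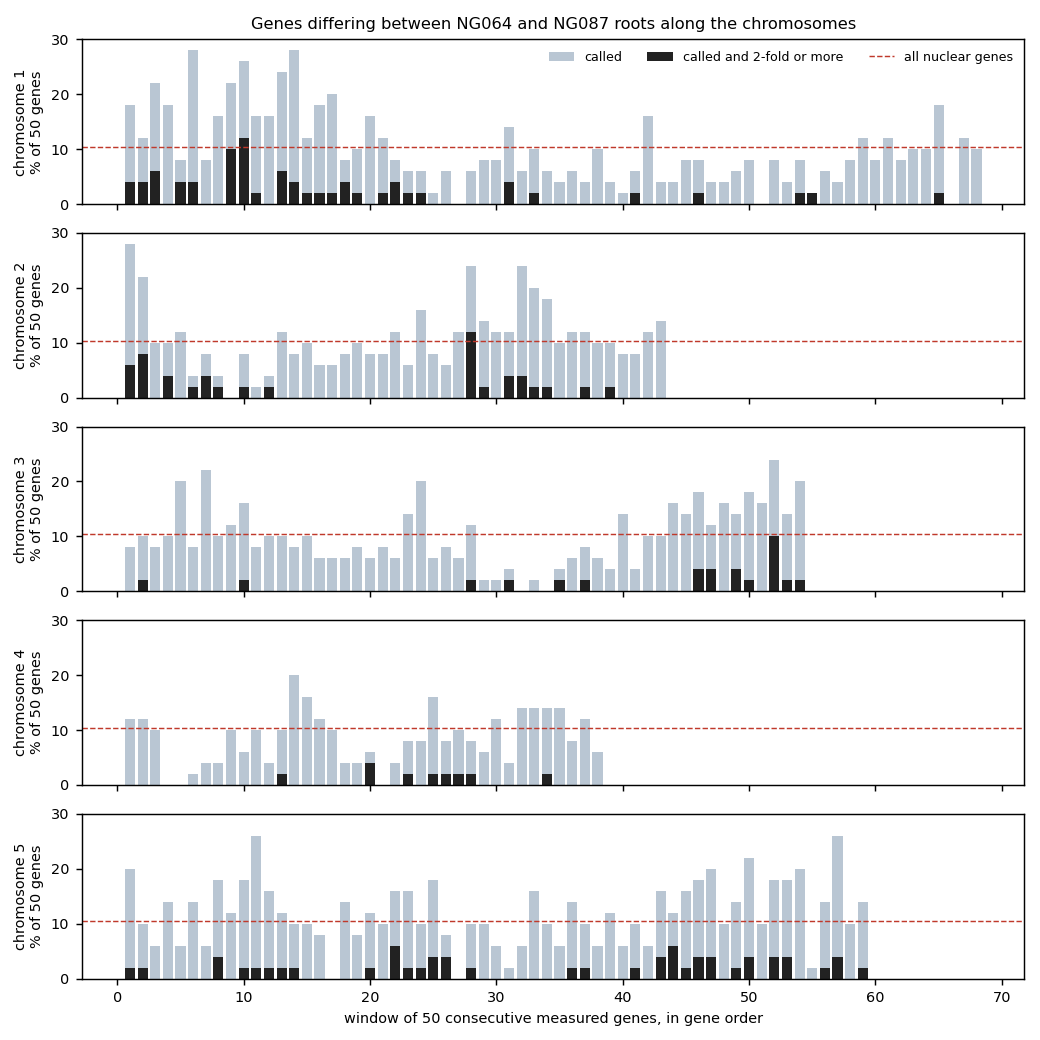
Share of genes called (grey) and called at 2-fold or more (black) between NG064 and NG087 roots (percent of 50 genes, y axis) in windows of 50 consecutive measured genes in gene order (x axis), for chromosomes 1 to 5. The dashed line is the 10.4% of all nuclear genes. Chromosome 1 holds its 2-fold genes mainly in windows 1 to 24, 39 against 8 in the rest.

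Of the windows with the most called genes 3 had 14 and 3 had 13. Of those with 13, the first in gene order is described, and the others lay on chromosome 5, from AT5G11640 to AT5G12440 and from AT5G63910 to AT5G64870. The window from AT1G06420 to AT1G07260 had 14 called genes, with AT1G06500 (1.1, adjusted p = 0.000242), AT1G06450 (-0.95, adjusted p = 0.0132) and AT1G06830 (-1.49, adjusted p = 0.0461, and 0.0721 with the block). That from AT1G14770 to AT1G15700 also had 14, with AT1G15640 (1.37), AT1G14910 (-1.19) and AT1G15060 (-0.67). The window from AT2G01060 to AT2G02050 had 14, with AT2G01090, AT2G01130 (-1.4) and AT2G01300 (1.4, adjusted p = 0.081 with blocks within each supply). That from AT1G10770 to AT1G11700 had 13, of which 6 were 2-fold, among them AT1G11280 (4.34) and, next to it, AT1G11270 (1.66), then AT1G11540 (-1.78, adjusted p = 0.0711 with blocks within each supply) and AT1G11210 (1.67). Each window held genes that were higher and genes that were lower in NG064. AT1G11540 had 4.37 to 5.23 (median 4.71) in NG064 and 4.72 to 8.22 (median 6.60) in NG087, overlapping between the lines.

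Among the chromosomes, 12% of the genes of chromosome 5 were called, 10.9% of chromosome 2, 10% of chromosome 1, 9.96% of chromosome 3 and 8.58% of chromosome 4. For 2-fold calls the shares were 1.51%, 1.38%, 1.38%, 0.772% and 0.465% in the same order. The 11 windows with no called gene lay on all 5 chromosomes. Of the pair taken by the naming rule, the window from AT5G28890 to AT5G34880 had 10% of its genes at a mean of 5 or more, and that from AT5G17840 to AT5G18750 had 50%.

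Shoots of the same lines gave a further look at the line difference. In shoots 434 probe sets were called (1.91%), 126 of them at 2-fold or more (0.554%), and 225 genes of 13286 (1.69%). Leaving out 1 shoot array gave 214 to 932, the highest without NG087 sufficient replicate 1. Of the 299 2-fold root calls 85 (28.4%) were called in shoots in the same direction and 1 in the opposite direction. Of the 126 2-fold shoot calls 89 (70.6%) were called in roots in the same direction. At 17 of the root calls every shoot array was at the floor, and of the other 282 the shoot difference had the same sign for 253.

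Line by organ, the test of whether the line difference itself differs between root and shoot, was called at 267 probe sets (1.17%). The fit treated root and shoot arrays as independent, with no pairing of pools. Among the 299 root calls it was called at 82, of which 70 were not called in shoots. AT2G02680 differed by -4.27 in roots and was at the floor in the shoots of both lines. AT2G02620 differed by 3.58 in roots and 0.13 in shoots, with shoot means of 2.25 in NG064 and 2.13 in NG087. AT5G51160 differed by 3.43 in roots and had a shoot mean of 2.13 in both lines. AT5G56380 was lower in NG064 in both organs, with differences of -2.57 in roots and -3.68 in shoots. AT5G34920 (-5.09 in shoots), AT2G06490 (-3.86) and AT2G01090 (-4.87) were lower in both organs, with no called difference between organs.

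**Figure D5:**
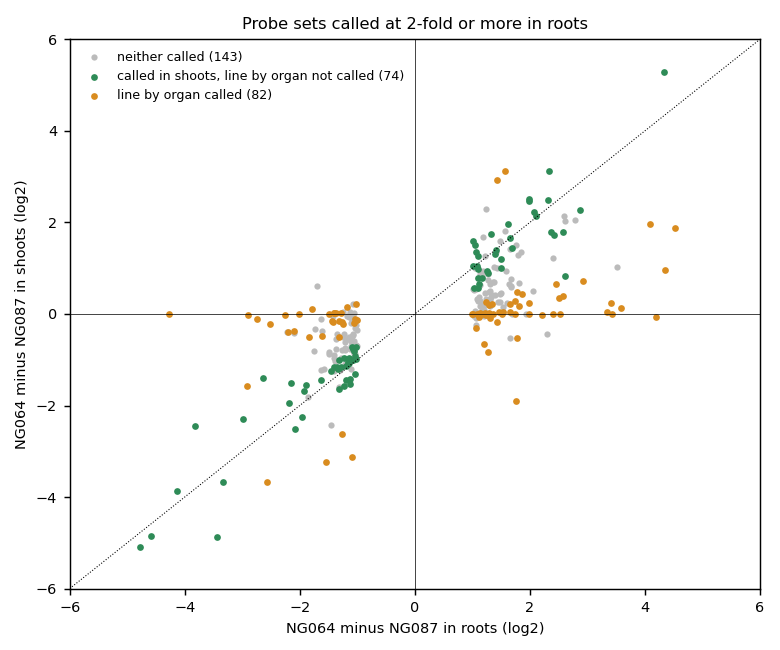
NG064 minus NG087 in shoots (log2, y axis) against the same in roots (log2, x axis) for the 299 probe sets called at 2-fold or more in roots, with the line of equality dotted. Orange marks the 82 with a called line by organ term, many of them near 0 in shoots, green 74 others called in shoots and grey the remaining 143.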

How the data were processed

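The values used were the authors' deposited log2 GCRMA values per probe set, already background-corrected and normalized. Per the submitters' processing notes the tools were affy, GCRMA and limma; versions and genome build were not stated there. Whether the probes match both lines' sequences was not tested. Names came from the platform annotation and the RefSeq TAIR10.1 gene table: 13513 probe sets paired with 1 gene, 503 with several and 8730 with none, and 13436 matched the table.

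Line differences (NG064 minus NG087) were fitted with limma 3.58.1 in R 4.3.3 on all 22746 probe sets of the 12 arrays, with line and nitrate as terms. Group means gave values within a supply, the interaction and, with the shoots, line by organ. Calls were Benjamini-Hochberg adjusted p below 0.05. The fits were tested on simulated data with independent noise on each array. The simulation held no deviation shared by same-numbered replicates, so it does not cover the one described next.

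Same-numbered replicates of the 2 lines deviated together within a supply (r = 0.111 to 0.423 over 6 pairs, against -0.36 to 0.147 for other numbers). Values with the replicate number as a block, and with blocks within each supply, are therefore given where they changed a line call of a named gene, as defined below. With blocks within each supply no interaction was called, and the adjusted p-values are given for only some of the genes. P-values measure the spread between pools. Named genes were the 12 largest non-overlapping calls in each direction, the 6 smallest interaction p-values, up to 3 calls each way per list or family, up to 3 calls in each of the 4 windows with the highest and 2 with the lowest called share (ties in gene order), and 4 nitrogen genes. Genes, lists and families were chosen with earlier results of these data known.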

Additional observations from a re-analysis of the deposited data

Results flagged for a closer look

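The line by nitrate interaction was called for 7 named genes, so that the NG064 minus NG087 difference changed between low and sufficient nitrate. It was 3.65 for AT5G59680, 1.67 for AT2G04050, 1.60 for AT4G15700, 0.76 for AT2G26390 and 0.15 for AT3G55710, and -3.39 for AT5G54000 and -3.35 for AT3G61390. With replicate numbers as blocks within each supply, limma called 0 of 22746 probe sets, and 2342 passed an unadjusted threshold of 0.05.

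The root minus shoot value of the line difference was called for 18 named genes. It was positive for AT2G02620 (3.45), AT5G51160 (3.43), AT5G54040 (3.38), AT3G56080 (2.64), AT1G19390 (2.39), AT3G61390 (2.23), AT1G15640 (1.37), AT5G56380 (1.11), CYP71B28 (0.98) and AT2G26390 (0.75). It was negative for AT2G02680 (-4.27), AT1G05770 (-2.29), AT5G59680 (-2.25), AT5G54700 (-2.01), AT5G54000 (-1.99), AT1G11540 (-1.88), AT3G62630 (-1.80) and UGT88A1 (-0.79). Of these, AT5G56380 had the larger difference in shoots (-3.68, against -2.57 in roots), and AT3G56080 differed in both organs (4.52 in roots and 1.88 in shoots, adjusted p = 0.0312 in shoots).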

How the results depend on the processing

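No called line difference of the 72 named genes changed direction. Of the interaction calls, 8 of 10 were positive as reported, against 19 of 44 without NG064 sufficient replicate 2. The count over both supplies stayed within 1.5 times of 2741 in every alternative, from 1947 (without NG064 sufficient replicate 3) to 3856 (fit of 34 root arrays), and the 2-fold count from 210 (low probe sets left out) to 359. Of the 299 2-fold calls, 270 were kept with the replicate block and 251 with the block within each supply, an alternative chosen after seeing the data. Fitting 34 root arrays, without Fei-0 replicate 3, gave 1020 calls at low nitrate, 2872 at sufficient nitrate and 21 interactions, and the block within each supply gave 226 at low nitrate and 0 interactions. The interaction count was also 1 when low probe sets (mean under 5) were left out, 2 after quantile normalization and 5 with the replicate block. Line by organ had 113 calls with that filter. Leaving out 1 array gave 271 to 744 at low nitrate, 828 to 2069 at sufficient nitrate, 12 to 44 interactions, 214 to 932 in shoots and 199 to 328 for line by organ. The replicate block weakened the line call of 9 and the block within each supply that of 14 of the 72 named genes, given beside them above or, for AT5G59680 (0.147), JAL22 (0.105), XTH18 (0.0882), EXPA9 (0.0678), psaA (0.107) and AT1G06830 (0.0985) within each supply, here. Neither block ended another line call of these 72 genes. Other genes given above, such as WNK9, HEMA2, AGL79 and UGT85A2, were not among the 72. Their calls were not followed singly through the blocks or the fits that left out 1 array. The interaction calls of AT5G54000 and AT4G15700 were lost in 8 and 7 of 12 fits that left out 1 array. That of AT3G61390 was lost with the replicate block and was not followed through those fits. Of the 72 named genes 18 lost the line call without some array: with their highest adjusted p, JAL22 (0.0976), AFR (0.0929), UGT71C3 (0.0923), accD (0.0912), AT1G06830 (0.0907), UGT76C1 (0.106), ycf4 (0.0666), ATG8F (0.0746), CYP71B26 (0.0661), EXPA9 (0.0594), GSTU25 (0.0731), psaA (0.0862), AT1G14130 (0.0688), AT3G61390 (0.0819), AT5G59680 (0.089), GSTU21 (0.0694), XTH18 (0.0605) and GSTL3 (0.0517). Windows with 20% or more called numbered 14 in the fit of all 36 root arrays and 63 in that of 34. Signal near the floor and 3 pools a group limit the precision.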
